A study of Mus musculus with 112 samples.

Results

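BALB/cJ is an albino inbred laboratory mouse strain. Its heart was compared with the hearts of 5 other inbred strains, using the arrays of mice kept on the control diet. The 8 arrays titled BALB with the control diet were set against the mean of the 5 group means of 129S1/SvImJ, C57BL/6J, C3H/HeJ, CBA/J and DBA/2J, 8 arrays each, so that 48 of the 112 arrays of the series entered the main comparison. The hybrid strain was not used. The series as a whole asked which transcripts respond to caloric restriction (CR) in the same way across strains, and strain differences in control animals were the background on which those responses were read. All animals were males from a commercial breeder that were housed singly, ate a purified AIN93M-based diet and were killed after an overnight fast at 22 weeks of age. No transgene or drug was involved. Each array carried the heart RNA of 1 mouse, so 8 is the number of mice. The p-values measure the spread between mice of a strain, pooled over the strains. BALB/cJ mice were allotted more food than the other strains on both diets, and strain and food allotment cannot be told apart. The CR arrays of the same strains, from other mice, served as a second look at each strain difference: 8 BALB/cJ and 39 others. CR began at 8 weeks of age and was not equally deep in all strains. BALB/cJ mice on CR were allotted the control ration of the other strains. The allotment of 129S1/SvImJ and C57BL/6J mice on CR was cut further partway through. Only BALB/cJ showed no significant fall in body weight on CR. Strain and degree of restriction therefore cannot be told apart on CR.

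Values were log2 signals, a brightness scale on which a difference of 1 is a doubling, and were tested for 19938 genes with limma, a linear model fitted to all genes together. A gene was called higher or lower when its Benjamini-Hochberg adjusted p was under 0.05. Against the mean of the 5 strains 2310 genes passed, which was 11.6% of those tested, 1368 higher (6.86%) and 942 lower (4.72%). Most of these reflected contrasts with some strains and not with others: 357 passed against 1 strain, 880 against 2, 582 against 3 and 327 against 4 when each strain was tested alone. A narrower set of 151 genes (0.757%) passed against each of the 5 strains with 1 sign, 105 of them higher in BALB/cJ (0.527%) and 46 lower (0.231%). They are called here genes apart from each strain. The median size of their difference from the mean of 5 was 0.61, and 31 differed by at least 1. By the same rule 44 genes set C3H/HeJ apart, 83 DBA/2J, 216 CBA/J, 282 129S1/SvImJ and 1910 C57BL/6J, which places BALB/cJ in the middle of the 6 strains. In 17 genes (0.0853%) the 8 BALB/cJ arrays did not overlap with any of the 40 others.

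Some arrays stood apart, most of them for their cell content. Every BALB/cJ array held the defining transcripts of ventricular muscle, with a mean level over 12 ventricular markers of 11.62 to 11.80 on 7 arrays and 11.23 on replicate 7. Replicate 7 also carried transcripts of thymocytes, at a mean level of 7.57 against 4.28 to 4.39 on the other 7, and of T and B lymphocytes, at 7.06 against 4.51 to 4.79. Markers of atrial muscle varied within and between strains: a mean level of at least 8 was found on 3 of 8 BALB/cJ arrays (replicates 2, 6 and 7), on 6 of 8 C57BL/6J arrays and on none of the 8 129S1/SvImJ arrays. White adipocyte markers stood at 8.61 and 9.17 in replicates 2 and 7, against 7.20 to 7.42 on the other BALB/cJ arrays. Among the other strains, DBA/2J replicate 5 carried thymocyte transcripts (8.46) and C3H/HeJ replicate 6 was rich in atrial markers (10.17). CBA/J replicate 1 correlated least with its group (r = 0.889) and had the highest median of the 48 control arrays (5.57). The cause of that was not tested. In whole tissue, fewer cells of a type and less RNA per cell cannot be told apart. Probes were designed on the reference genome of C57BL/6J, and whether sequence variants of BALB/cJ lie under the probes was not tested.

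Heat shock proteins are chaperones that hold, fold and refold other proteins. Heat shock factor 1 switches on their genes by binding paired GAA and TTC blocks near the start site when misfolded proteins build up. In heart muscle they also guard the contractile filaments, and small heat shock proteins are abundant there. No list examined had a larger share of members higher in BALB/cJ hearts. Of 17 measured chaperones and co-chaperones 13 were higher and none lower, against 6.86% of all genes higher. The median difference of the list was 0.48, against -0.02 over all genes tested, and 7 of the 17 were apart from each strain. The list stood above each single strain, with median differences of 0.31 against 129S1/SvImJ, 0.99 against C57BL/6J, 0.41 against C3H/HeJ, 0.52 against CBA/J and 0.46 against DBA/2J.

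Hspa1a encodes the stress-inducible HSP70, the main chaperone that is made on demand. Its log2 signal in BALB/cJ replicates 1 to 8 was 9.33, 9.96, 6.32, 10.96, 8.49, 10.80, 9.75 and 10.58. The 40 other arrays lay between 6.03 and 8.04, with a median of 6.65. Thus 7 of 8 BALB/cJ mice stood above every mouse of the other strains, and replicate 3 stood among them. The difference from the mean of 5 was 2.79 (SE 0.255, 6.94-fold, limma adjusted p = 1.46e-11). The BALB/cJ mice differed far more among themselves (SD 1.53) than the mice of any other strain (SD 0.19 to 0.51). The fitted error pools these spreads, so the SE and p-value are smaller than the BALB/cJ spread alone would give. Hspa1b, a near-identical neighbour of Hspa1a, had no value of its own here, so the signal cannot be assigned to 1 gene of the pair.

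Partners of HSP70 were higher too. Hsph1 encodes HSP110, which exchanges the nucleotide of HSP70. It measured 7.09, 9.02 and 10.11 (lowest, median, highest) in BALB/cJ against 6.29 to 7.99 in the others, and differed by 1.72 (SE 0.191, limma adjusted p = 3.3e-09). Dnajb1 encodes an HSP40, which delivers clients to HSP70. It measured 6.49, 7.72 and 8.78 against 5.75 to 7.07, and differed by 1.35 (SE 0.150, limma adjusted p = 2.82e-09). A second HSP40 gene, Dnaja1, measured 8.56, 9.47 and 10.08 against 7.43 to 9.02, a difference of 1.15. Hsp90aa1, the inducible HSP90 that matures kinases and hormone receptors, measured 9.04, 10.61 and 11.23 against 8.71 to 9.90, a difference of 1.08. For these 4 genes the median BALB/cJ mouse stood above the highest mouse of the other strains, while the lowest BALB/cJ mouse lay inside their range. All 3 probe sets of Hsp90aa1 gave differences of 1.07 to 1.08, and both of Dnaja1 gave 1.09 and 1.15. Sequence shared between probe sets of 1 gene was not tested, so these values may not be independent.

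The small heat shock proteins moved less evenly. Hspb1 (HSP27), an actin-protecting chaperone, measured 9.72, 10.67 and 11.08 in BALB/cJ against 8.11 to 10.27, and differed by 1.28 (SE 0.130, limma adjusted p = 2.45e-10). Cryab, which encodes the desmin chaperone alpha-B-crystallin, measured 11.13, 11.32 and 11.42 against 10.23 to 11.18, a difference of 0.42 (limma adjusted p = 1.88e-05). Those 2 were apart from each strain. Hspb7 was higher by 0.38, whereas Hspb6 (0.14) and Hspb8 (0.20) did not pass. The constitutive HSP70 gene Hspa8 was higher by 0.26, Hspa1l by 0.77, Hspa4l by 0.48 and Dnajb4 by 0.42. Of the mitochondrial pair, the HSP10 gene Hspe1 was higher by 0.25, while the HSP60 gene Hspd1 gave the same size of difference (0.26) with an adjusted p of 0.059 by limma. Bag3, a co-chaperone of the small heat shock proteins, gave 0.49 with a limma adjusted p of 0.123. The count of higher members was 12 to 16 under 8 other settings of the fit, including one without the 4 arrays that stood apart.

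**Figure D1:**
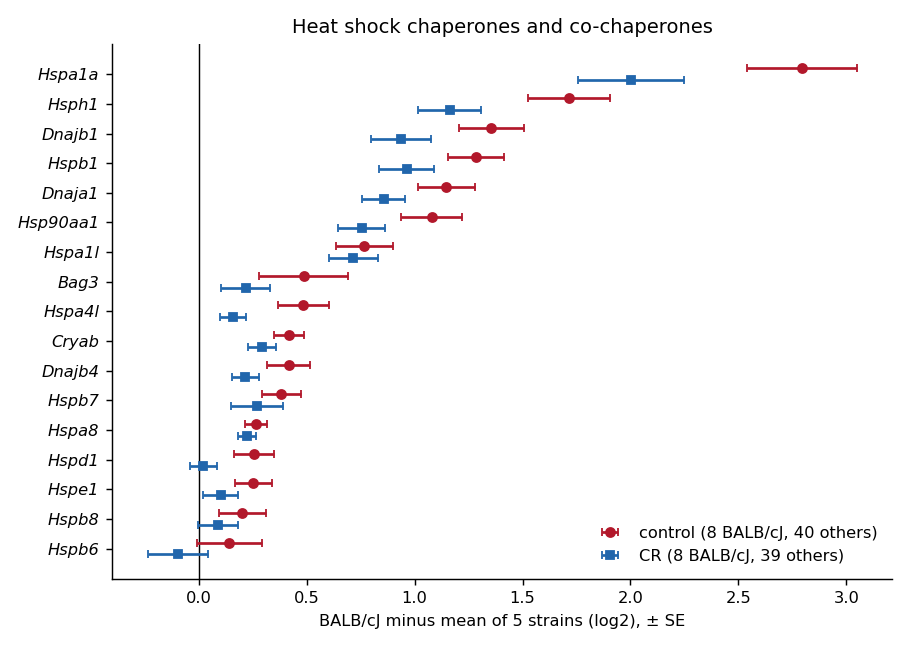
Difference in log2 signal between BALB/cJ hearts and the mean of 5 inbred strains for 17 chaperones and co-chaperones, in control mice (red circles, 8 against 40) and in CR mice (blue squares, 8 against 39); bars are ± SE of the fit. Hspa1a lies farthest to the right in both diets (2.79 and 2.00), and Hspb6 and Hspb8 lie near 0.

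Within BALB/cJ the inducible chaperones went up and down together from mouse to mouse. Across the 8 control mice Pearson's r with Hspa1a was 0.947 for Hsp90aa1 (rho 0.881), 0.913 for Hsph1 (rho 0.881), 0.899 for Dnajb1 (rho 0.929) and 0.858 for Dnaja1 (rho 0.929). The exact permutation p-values of these r were 0.000942, 0.00139, 0.000546 and 0.00253, and those of rho were 0.00724, 0.00724, 0.00223 and 0.00223. Adjusted over the 20 relations computed, they were 0.00322, 0.00347, 0.00322 and 0.0046 for r, and 0.0121, 0.0121, 0.00637 and 0.00637 for rho. Without the 2 mice farthest from the median of Hspa1a, r was 0.859, 0.889, 0.890 and 0.877. Hspb1 gave r = 0.891 (exact permutation p = 0.00888, adjusted 0.0137) and rho = 0.690 (exact permutation p = 0.0694, adjusted 0.0868), and r = 0.832 without those 2 mice. In control mice Cryab gave r = -0.05 (exact permutation p = 0.901; rho = -0.12, p = 0.793) and Acta1 r = -0.18 (exact permutation p = 0.698; rho = -0.14, p = 0.752). Replicate 3 had the lowest level of Hspa1a, Hsph1, Dnajb1, Hsp90aa1, Dnaja1 and Hspb1 alike. The pairs were chosen after their values had been seen, and chaperones of 1 RNA sample share its handling. Both diets had a gap in Hspa1a: between replicate 3 and the other 7 control mice, and in CR mice between 3 mice at 6.61 to 7.04 and 5 at 8.33 to 10.27, so r partly measures the step across it.

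The 8 CR mice gave r with Hspa1a of 0.965 for Hsph1 (rho 0.976), 0.951 for Hsp90aa1 (rho 0.976), 0.950 for Hspb1 (rho 0.952), 0.942 for Dnaja1 (rho 0.952) and 0.893 for Dnajb1 (rho 0.905). Adjusted exact permutation p-values were 0.00322, 0.00322, 0.00322, 0.00418 and 0.00436 for r, and 0.00265, 0.00265, 0.00456, 0.00456 and 0.0114 for rho, and r was 0.945, 0.913, 0.93, 0.90 and 0.83 without the 2 farthest mice. Unlike in control mice, Cryab passed on CR (r = 0.892, exact permutation p = 0.00732, adjusted 0.0122; rho = 0.881, adjusted 0.0121), with r = 0.894 without the 2 farthest mice. Acta1 passed on CR too (r = 0.782, exact permutation p = 0.0167, adjusted 0.0223; rho = 0.810, adjusted 0.0311), with r = 0.835 without them. The difference in r between diets was not tested.

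**Figure D2:**
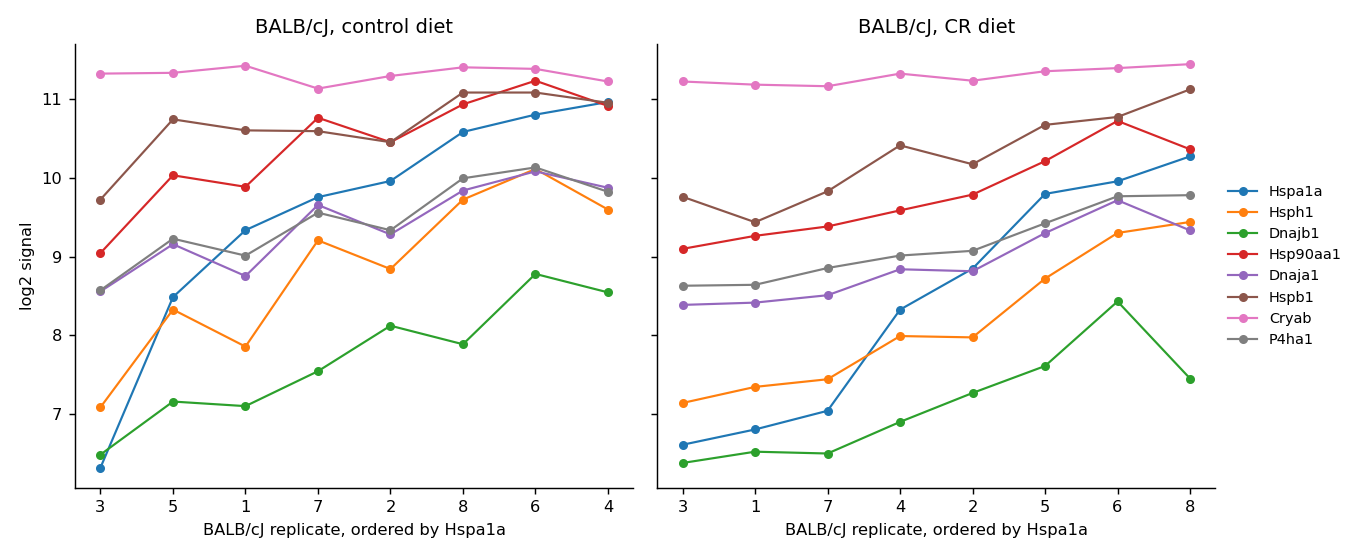
Log2 signal of 8 genes in each BALB/cJ mouse, ordered along the x axis by Hspa1a, on the control diet (left) and on CR (right); each line is 1 gene and each point 1 mouse. Lines of the inducible chaperones and of P4ha1 climb with Hspa1a (6.32 to 10.96 in control mice), while the Cryab line stays between 11.13 and 11.42 in control mice.

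Several other genes apart from each strain are given beside these chaperones. For a tie of P4ha1 to them only its correlation with Hspa1a was computed, and the cause of that was not tested. P4ha1, the catalytic subunit of the collagen prolyl hydroxylase, measured 8.57, 9.44 and 10.13 in BALB/cJ against 7.48 to 8.71 in the others, a difference of 1.38 (SE 0.121, limma adjusted p = 4.8e-12). It went with Hspa1a across the 8 control mice (r = 0.901, exact permutation p = 0.00134, adjusted 0.00347; rho = 0.881, exact permutation p = 0.00724, adjusted 0.0121), with r = 0.896 without the 2 farthest mice, and across the 8 CR mice at r = 0.960 (exact permutation p = 0.000397, adjusted 0.00322; rho = 1.0, adjusted 0.000992), with r = 0.925 without them. Snord14e, a small nucleolar RNA that lies in an intron of Hspa8, measured 7.87, 9.02 and 9.37 against 6.72 to 8.66, a difference of 1.30 (limma adjusted p = 7e-07). Its r with Hspa1a of 0.831 (exact permutation p = 0.0113; rho = 0.690, exact permutation p = 0.0694) fell to 0.29 without the 2 farthest control mice and so rests on them. On CR its r was 0.768 (exact permutation p = 0.035, adjusted 0.0412; rho = 0.619, exact permutation p = 0.115, adjusted 0.128) and 0.757 without the 2 farthest CR mice. Co-chaperones of HSP90 were picked from the 151 genes after their values had been seen: Chordc1 was higher by 0.83, Ahsa2 by 0.87 and Stip1, the adaptor between HSP70 and HSP90, by 0.66. Cct6a, a subunit of the cytosolic chaperonin, was higher by 0.32.

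The windows of 250 bases before the start site are shown for the chaperones apart from each strain whose window holds an 8-base heat shock element core, GAANNTTC or TTCNNGAA, in capitals. Each pattern is its own reverse complement, so both strands were searched at once. Sequences are from RefSeq on GRCm38.p6, the C57BL/6J reference, and not from BALB/cJ; they read 5′ to 3′ toward the start site.
Hspa1a (chr17:34972157-34972406, minus strand): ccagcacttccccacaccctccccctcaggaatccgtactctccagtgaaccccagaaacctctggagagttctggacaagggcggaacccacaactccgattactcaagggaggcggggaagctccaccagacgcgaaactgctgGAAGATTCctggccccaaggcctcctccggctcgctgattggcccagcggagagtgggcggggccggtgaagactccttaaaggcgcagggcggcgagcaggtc
Hsph1 (chr5:149636337-149636586, minus strand): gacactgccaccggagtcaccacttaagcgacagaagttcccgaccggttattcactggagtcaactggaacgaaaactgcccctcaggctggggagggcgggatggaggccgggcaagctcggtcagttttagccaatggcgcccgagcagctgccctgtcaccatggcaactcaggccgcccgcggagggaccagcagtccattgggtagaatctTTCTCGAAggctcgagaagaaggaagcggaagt
Hspb1 (chr5:135887669-135887918, plus strand): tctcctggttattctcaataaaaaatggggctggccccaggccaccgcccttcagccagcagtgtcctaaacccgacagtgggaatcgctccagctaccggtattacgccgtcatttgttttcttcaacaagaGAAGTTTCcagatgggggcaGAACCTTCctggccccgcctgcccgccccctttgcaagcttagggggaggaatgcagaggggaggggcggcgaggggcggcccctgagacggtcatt
Dnaja1 (chr4:40722218-40722467, plus strand): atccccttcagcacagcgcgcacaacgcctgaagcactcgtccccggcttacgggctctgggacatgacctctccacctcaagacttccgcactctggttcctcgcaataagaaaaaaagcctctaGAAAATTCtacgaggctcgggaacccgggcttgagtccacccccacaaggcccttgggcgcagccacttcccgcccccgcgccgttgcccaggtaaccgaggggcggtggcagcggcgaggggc
Of the 7 chaperones apart from each strain 5 had a window, and Hsp90aa1 and Cryab had none. For Hsph1 and Dnaja1, which have several annotated starts, the first is shown. The windows at the later starts of Dnaja1 held neither pattern. The core began 104 bases before the start in Hspa1a, 33 in Hsph1, 124 in Dnaja1, and 117 and 97 in Hspb1. The 2 windows of Dnajb1 held neither pattern, which says only that these letters are not there. Of the 14 heat shock genes with a window 8 held the core (57.1%), against 12.8% of all 32851 windows and 14.5% of all 27025 genes with one. Among all genes apart from each strain with a window, 11 of 85 higher genes held it (12.9%) and 6 of 32 lower genes (18.8%), against 13.3% of the genes tested on the arrays. A match is a description of the letters and not of binding.

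Zhx2 was the most reduced of the genes apart from each strain. It encodes a zinc fingers and homeoboxes repressor, and BALB/cJ is known to carry an insertion in Zhx2 that lowers its expression, first met in liver, where it leaves alpha-fetoprotein, H19 and Gpc3 incompletely silenced after birth. The 8 BALB/cJ arrays measured 4.61, 5.33 and 5.43, and the 40 others 6.16 to 7.94 with no overlap. Group means were 7.71 in 129S1/SvImJ, 7.59 in DBA/2J, 7.49 in C3H/HeJ, 7.15 in CBA/J and 6.95 in C57BL/6J. The difference from the mean of 5 was -2.18 (SE 0.107, 4.52-fold lower, limma adjusted p = 8.49e-21). Mice on CR gave -2.20, with BALB/cJ at 4.87 to 5.72 and the others at 6.88 to 7.94. The liver targets did not pass in heart: Afp differed by -0.11 (limma adjusted p = 0.369) and Gpc3 by -0.10 (limma adjusted p = 0.772), and H19 had no value of its own. Other loci known to vary in BALB strains did not pass either, Prkdc at 0.02 and Cdkn2a at -0.06.

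The sarcomere, the contractile unit of heart muscle, is built on actin thin filaments that in the adult heart are mostly of the cardiac isoform, with the skeletal isoform Acta1 as the fetal form. A duplication at the promoter of the cardiac actin gene Actc1, described in BALB/c hearts as lowering cardiac actin and raising Acta1, makes this pair a known trait of the strain. Acta1 measured 12.38, 11.25, 12.58, 12.43, 12.44, 12.49, 10.86 and 12.40 in BALB/cJ replicates 1 to 8, and 6.98 to 11.61 in the others. The 6 BALB/cJ mice near 12.4 stood above all 40 others. The 2 lower ones, replicates 2 and 7, were the arrays with the highest atrial and adipocyte marker levels. The difference was 2.21 (SE 0.248, 4.62-fold, limma adjusted p = 3.96e-09), and 2.24 with atrial and adipocyte marker levels as covariates. The other strains were far from level, with means of 11.1 in DBA/2J, 10.8 in CBA/J, 10.3 in 129S1/SvImJ, 9.36 in C3H/HeJ and 7.99 in C57BL/6J, and the step from DBA/2J to BALB/cJ was the narrowest to pass (limma adjusted p = 0.0393). Actc1 differed by 0.03 (SE 0.107, 95% interval -0.19 to 0.24, limma adjusted p = 0.897) at a level of 13.1. That mean of 5 averages unlike strains. BALB/cJ measured 12.989 to 13.331, 129S1/SvImJ 13.305 to 13.46, C3H/HeJ 13.13 to 13.408, DBA/2J 12.806 to 13.354 and C57BL/6J 12.38 to 13.122. CBA/J measured 11.407 in replicate 1 and 12.911 to 13.194 on its other arrays. The coding sequence of Actc1 is close to that of Acta1, and probes shared between them were not tested.

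Other filament genes moved little. Of 36 thick and thin filament genes 3 were higher and none lower, against 6.86% of all genes higher and 4.72% lower. They were Myl1 (1.53), the cardiac troponin T gene Tnnt2 (0.29) and the cardiac troponin I gene Tnni3 (0.13). Myl1, a myosin light chain of fast skeletal muscle, measured 8.88, 9.26 and 10.22 in BALB/cJ against 6.26 to 9.47 (SE 0.204, limma adjusted p = 2.65e-07). The 12 skeletal muscle markers did not rise with it: none passed, and their median difference was -0.04. Lancl1, the next protein-coding gene measured after Myl1 on chromosome 1, was also apart from each strain (0.66), at 7.90 to 8.27 in BALB/cJ against 6.71 to 7.89. Of 27 actins and actin regulators 4 were higher and none lower, against those same shares of all genes. Among the 4 were Pfn1 (0.41), which feeds actin monomers to filaments, and Actb (0.27).

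Genes of the cardiac stress and fetal programme were higher beyond Acta1. Of 14 measured, 8 were higher and none lower, against 6.86% and 4.72% of all genes, with a median difference of 0.42. Without C57BL/6J 6 of the 14 were higher. Acta1, Cryab and Nppb were apart from each strain. Nppb, which encodes the natriuretic peptide BNP, measured 10.06, 10.46 and 10.97 in BALB/cJ against 8.60 to 11.07, and differed by 0.91 (SE 0.195, limma adjusted p = 0.000802). Ccn2, a matrix-associated growth regulator, was higher by 1.14, the titin-linked repressor Ankrd1 by 0.53 and the calcineurin regulator Rcan1 by 0.41. Nppa and Myh7, the best known members of the programme, did not pass. Scn4b, a sodium channel subunit, was higher by 1.39 against the mean of 5, yet the means of C3H/HeJ (7.40) and CBA/J (7.89) did not differ from that of BALB/cJ (8.00) by the test. Of 21 cardiac ion channels 4 were higher and 2 lower, again against 6.86% and 4.72% of all genes. Of 19 calcium handling genes none was higher and 2 were lower, Casq2 (-0.34) and Asph (-0.21).

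**Figure D3:**
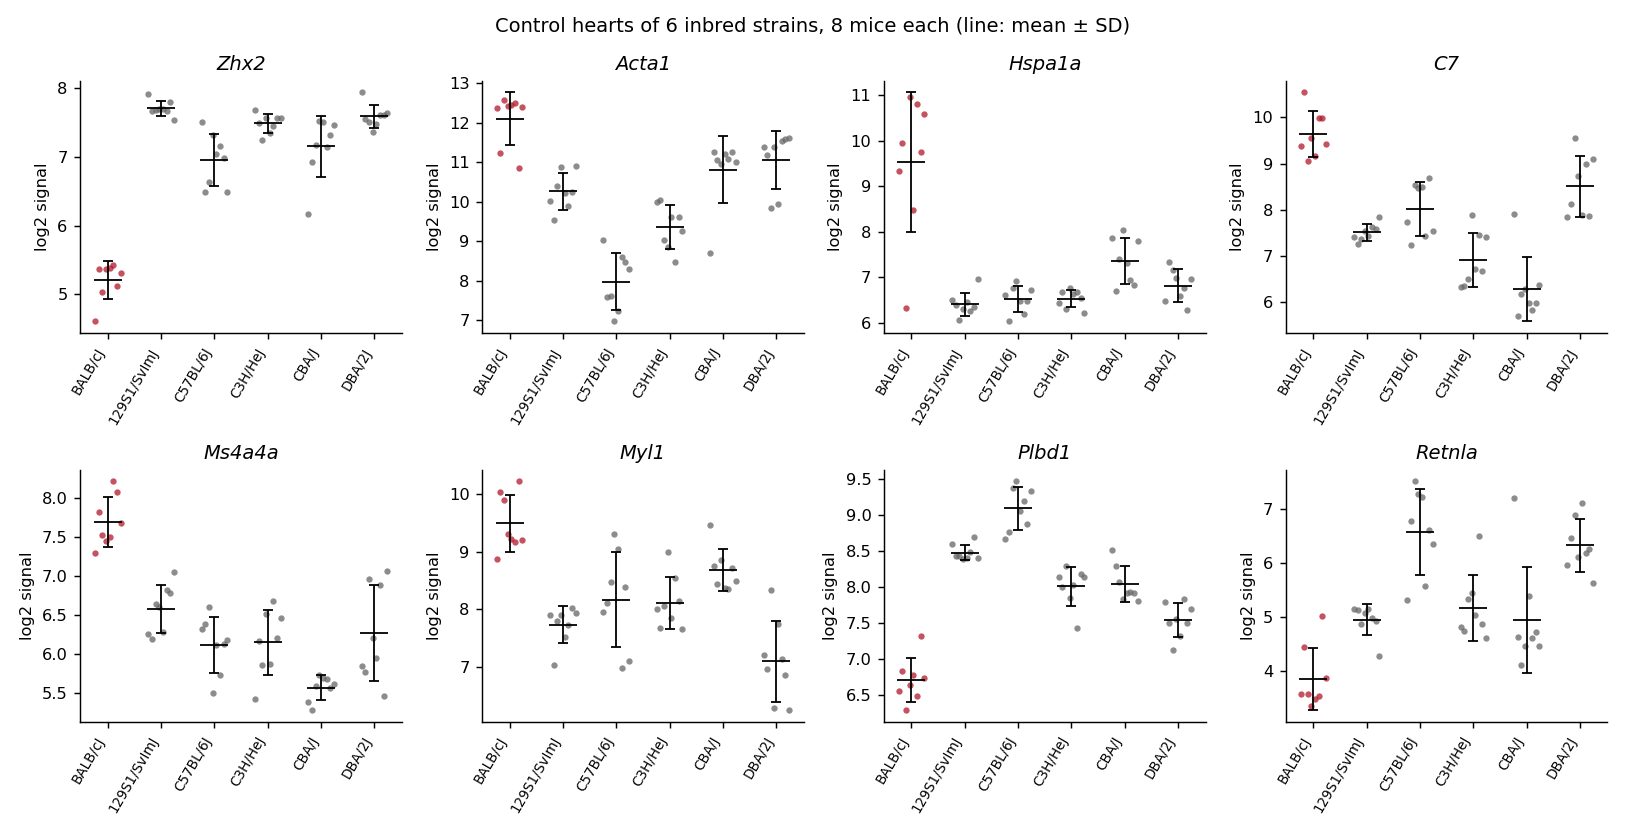
Log2 signal of 8 genes in the control hearts of 6 inbred strains, 8 mice each; points are mice (BALB/cJ in red), and lines are the mean ± SD. BALB/cJ is the lowest strain for Zhx2, Plbd1 and Retnla and the highest for the other 5 genes, with the widest spread in Hspa1a (SD 1.53).

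Of 26 extracellular matrix genes 12 were higher and none lower, against 6.86% of all genes higher, with a median difference of 0.25, and 14 did not pass. Of 12 fibroblast markers 8 were higher and none lower, with a median difference of 0.27, and 4 did not pass. The genes called higher on the lists share 5 members, and no gene of either list was apart from each strain. Postn, a matricellular protein of activated fibroblasts, was the most raised of them at 9.43, 9.71 and 10.68 against 7.05 to 10.42, a difference of 1.22 (SE 0.230, limma adjusted p = 0.000143), but it passed against 3 strains and not against C57BL/6J or DBA/2J. The small proteoglycan genes Bgn (0.71), Lum (0.61) and Dcn (0.22) and the fibrillar collagen genes Col1a2 (0.44) and Col1a1 (0.32) were higher, while Col3a1 did not pass. Against single strains the fibroblast median was 0.68 for 129S1/SvImJ and 0.03 for C57BL/6J. The mean fibroblast marker level was 8.77 to 9.25 in BALB/cJ, within the 8.06 to 9.41 of the other strains. Its part in the matrix counts was not tested. After a second quantile normalization 10 matrix genes and 5 fibroblast markers were higher. Genes of this kind apart from each strain, picked after their values had been seen, were the growth factor Fgf2 (1.09), the guidance cue Slit2 (1.14), the Wnt antagonist Sfrp1 (1.04), the fibulin Fbln2 (0.70) and Igfbp7 (0.64), which binds insulin-like growth factors.

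C7, the seventh component of complement, which inserts into target membranes, was 1 of the 3 genes raised most among those apart from each strain. It measured 9.06, 9.49 and 10.53 in BALB/cJ against 5.70 to 9.55, a difference of 2.19 (SE 0.206, 4.56-fold, limma adjusted p = 3.12e-11). The highest values, 10.53, 9.99 and 9.99, were those of replicates 2, 6 and 7, the arrays with atrial markers, and the difference was 2.15 with atrial and adipocyte levels as covariates. Of the 19 complement genes 4 were higher and none lower, against 6.86% of all genes higher and 4.72% lower. The others beside C7 were C1qb (0.59), Serping1 (0.35) and C1qa (0.31). C1qa and C1qb are made by macrophages. Of 14 macrophage markers 7 were higher and none lower, against the same shares, Cd68 by 0.45 and Csf1r by 0.32 among them. The macrophage median was 0.57 against 129S1/SvImJ and 0.53 against CBA/J, but -0.11 against C57BL/6J. No macrophage marker was apart from each strain. In CR mice 1 of the 14 was higher, against 9.04% of all genes higher on CR, and the median was 0.04. After a second quantile normalization 4 of the 14 were higher in control mice, and without BALB/cJ replicate 7 the count was 5, with C1qa among those lost.

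Ms4a4a, a tetraspanin-like membrane protein of macrophages, stood well outside that pattern. It measured 7.30, 7.60 and 8.22 in BALB/cJ against 5.28 to 7.07 with no overlap, a difference of 1.56 (SE 0.144, limma adjusted p = 1.99e-11), and 1.14 in CR mice. Its relative Ms4a6d was also apart from each strain (1.11). Retnla, a secreted product of alternatively activated macrophages and of adipose tissue, was lower: 3.34, 3.57 and 5.01 against 4.11 to 7.52, a difference of -1.74 (SE 0.243, limma adjusted p = 6.87e-07). Its 2 highest BALB/cJ values, 4.45 and 5.01, were in replicates 2 and 7, the arrays rich in adipocyte markers, and with marker levels as covariates the difference was -1.76. Plbd1, a lysosomal phospholipase B-like protein of myeloid cells, was lower as well, at 6.29, 6.69 and 7.31 against 7.13 to 9.46 (difference -1.52, SE 0.0958, limma adjusted p = 4.96e-17). T and B lymphocyte, thymocyte and neutrophil markers gave no calls.

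Immune genes that follow the major histocompatibility haplotype behaved by strain. The class II gene H2-Ea measured 8.08, 8.66 and 9.63 in BALB/cJ, and the strain means were 9.02 in DBA/2J, 7.61 in C3H/HeJ, 6.90 in CBA/J, 4.57 in 129S1/SvImJ and 4.55 in C57BL/6J. The b haplotype of 129S1/SvImJ and C57BL/6J is known to lack H2-Ea transcripts, while BALB/cJ and DBA/2J share the d haplotype. It was the 1 of 10 class II genes that passed (difference 2.11), and it was not apart from each strain. Of 20 interferon response genes 3 were higher and 3 lower, against 6.86% of all genes higher and 4.72% lower. Ifit3 was lowest at -0.99, a level that 129S1/SvImJ shared (6.38, limma adjusted p = 0.69).

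A part of the mitochondrial fuel genes was lower. The heart burns mainly fatty acids, which enzymes of beta-oxidation shorten in the mitochondrial matrix and whose electrons pass to the respiratory chain. Of 18 fatty acid oxidation genes 5 were lower and none higher, against 4.72% of all genes lower. All 18 lay below 0, and the median difference was -0.19. Against single strains the median was -0.43 for 129S1/SvImJ, -0.19 for C3H/HeJ, -0.16 for DBA/2J, -0.10 for C57BL/6J and -0.04 for CBA/J. Decr1, which reduces the double bonds of unsaturated fatty acids, was apart from each strain: it measured 9.98, 10.14 and 10.33 against 9.89 to 11.20, a difference of -0.59 (SE 0.0791, limma adjusted p = 2.72e-07). Etfa (-0.44), which passes electrons from acyl-CoA dehydrogenases, Eci1 (-0.38), Eci2 (-0.32) and Hadh (-0.28) were the others. In CR mice 6 of the 18 were lower and none higher, against 6.3% of all genes lower on CR. Without CBA/J replicate 1 the control count was 10 lower, and without the 4 arrays that stood apart it was 13.

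Of 45 respiratory chain genes 16 were lower and 2 higher, against 4.72% of all genes lower, with a median difference of -0.22. The lower ones came from complex I (Ndufa4 -0.42, Ndufb3 -0.40, Ndufab1 -0.39), complex II (Sdhc -0.42) and complex IV (Cox7a2l -0.56, Cox5b -0.33), and Ndufs7 (0.18) and Atp5d (0.17) were higher. No member of the list was apart from each strain, and the median was -0.04 against DBA/2J and -0.16 to -0.22 against each of the others. Without BALB/cJ replicate 7, the array rich in thymocyte transcripts, 8 of the 45 were lower in place of 16, the cause of which was not tested. Without the 4 arrays that stood apart 16 were lower. The second probe set of Cox7a2l gave -0.14. In CR mice 21 of the 45 were lower and none higher, against 6.3% of all genes lower on CR. Other mitochondrial genes apart from each strain, picked after their values had been seen, were the complex I subunit Ndufb11 (-0.45), the succinate dehydrogenase assembly factor Sdhaf4 (-0.87, with -0.11 at its second probe set), the iron-sulphur cluster genes Lyrm4 (-0.72) and Iscu (-0.37), the ribosomal proteins Mrps35 (-0.62) and Mrps5 (-0.56), and Pdp1 (-0.46), which activates pyruvate dehydrogenase.

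Targets of PPAR alpha, the fatty acid sensor of heart, gave 5 lower and 1 higher of 18, against 4.72% of all genes lower and 6.86% higher. Acot1 (-0.64), Ucp3 (-0.51), Plin5 (-0.41), Pdk4 (-0.39) and Pex11a (-0.35) were lower, and the lipid droplet coat gene Plin2 (0.59) was higher. Without the 4 arrays that stood apart 9 of the 18 were lower, and without C57BL/6J 3 were. None of the 5 lower genes was called in CR mice, where Acot1 gave 0.07. Of 17 genes of glycolysis and glucose uptake 3 were higher and none lower, against those same shares of all genes. Pgam2, the muscle phosphoglycerate mutase, was apart from each strain at 9.89, 10.66 and 10.85 against 8.55 to 10.26 (difference 0.78, SE 0.103, limma adjusted p = 2.3e-07). Fbp2, the muscle fructose bisphosphatase that opposes glycolysis, was lower at 5.83, 6.08 and 6.38 against 6.20 to 7.81 (-0.82), and the difference was -0.36 in CR mice. Among lipid synthesis genes Scd2, a fatty acid desaturase, was higher (0.82), and Cyp51 (-0.54) and Hmgcs1 (-0.43) of sterol synthesis were lower.

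**Figure D4:**
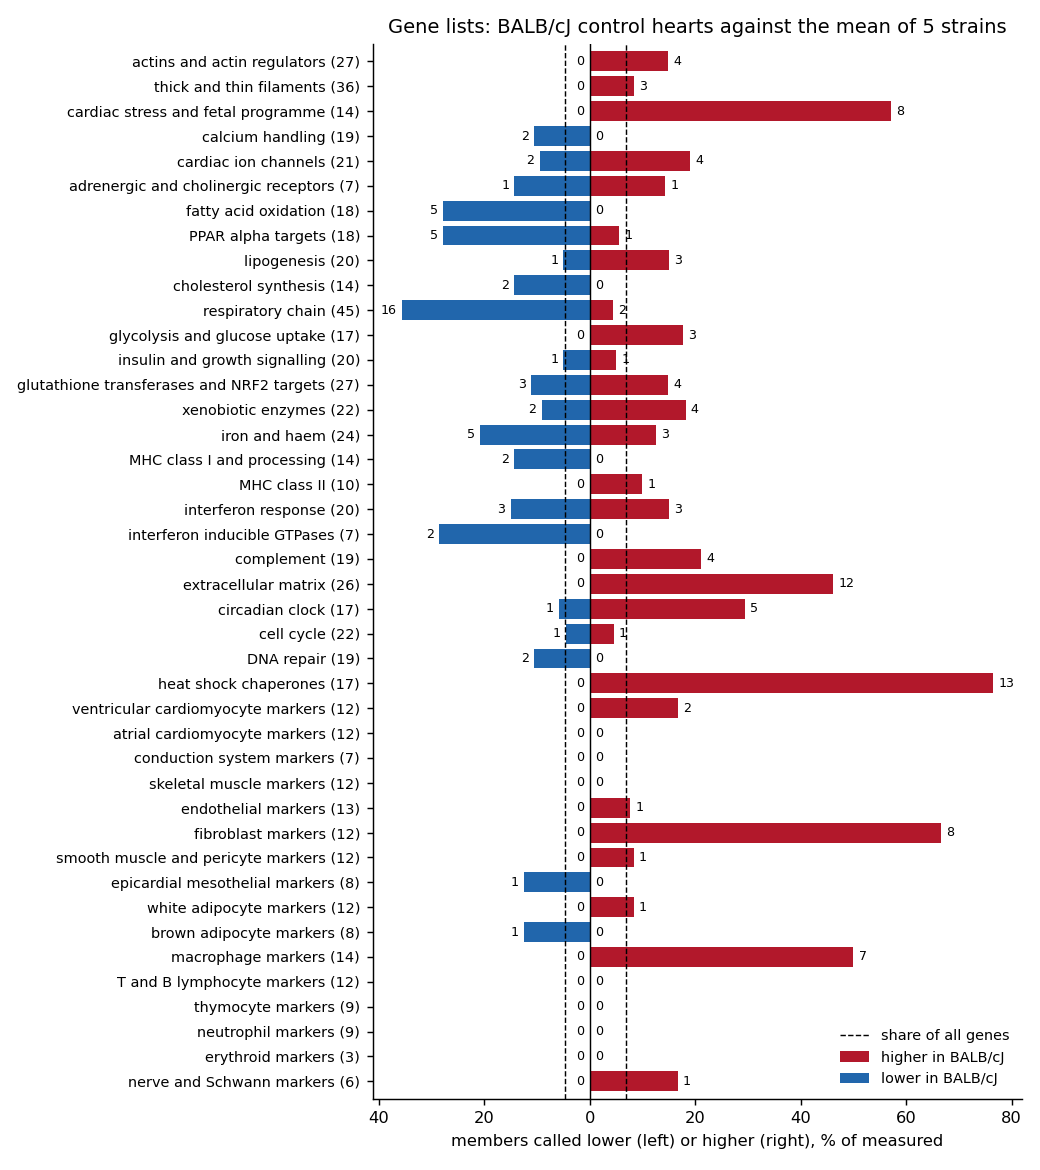
Share of measured members called higher (red, right) or lower (blue, left) in BALB/cJ control hearts for 42 gene and marker lists; the number measured is in brackets, the number called stands at each bar, and dashed lines mark the share of all genes, 6.86% higher and 4.72% lower. The bars of chaperones (13 of 17), fibroblast markers (8 of 12) and stress genes (8 of 14) reach farthest right, and the respiratory chain (16 of 45) reaches farthest left.

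Detoxification enzymes were split. Gstm2, a mu-class glutathione transferase, measured 9.58, 9.82 and 10.06 in BALB/cJ against 8.73 to 9.47 with no overlap, a difference of 0.64 (SE 0.06, limma adjusted p = 3.12e-11), while its family member Gstm5 was lower (-0.36). Gstm genes are close copies, and how their probes share signal was not tested. Of 27 glutathione transferases and NRF2 targets 4 were higher and 3 lower, against 6.86% of all genes higher and 4.72% lower. Gsta3 (0.81) and Mgst3 (-0.57) were the extremes. Glo1, which clears methylglyoxal, was lower by 0.82. Its 2 probe sets gave -0.82 and -0.80, and sequence shared between them was not tested. Of 22 enzymes that clear foreign compounds 4 were higher, 2 were lower and 16 did not pass. Their differences ran from -1.06 to 0.61. The lowest was that of Ces1d, a lipase and carboxylesterase. Ces1d measured 7.58, 8.11 and 9.63 against 8.52 to 11.44, a difference of -1.06 (SE 0.152, limma adjusted p = 1.27e-06). Fmo1, a flavin monooxygenase, was lower by 0.89, and DBA/2J was as low (8.82). Of 24 genes of iron and haem handling 3 were higher and 5 lower, against the same shares of all genes. Among them were transferrin (Trf, 0.80) and the iron exporter ferroportin (Slc40a1, -0.49).

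Clock genes drive daily rhythms through the repressors Per and Cry, and Per2 is also a known target of heat shock factor 1. Per2 measured 7.49, 8.12 and 8.51 in BALB/cJ against 5.86 to 7.67, a difference of 1.06 (SE 0.152, limma adjusted p = 1.25e-06). Across the 8 control mice it went with Hspa1a at r = 0.768 (exact permutation p = 0.0203, adjusted 0.0254; rho = 0.810, exact permutation p = 0.0218, adjusted 0.0311), and at r = 0.782 without the 2 farthest. Across the 8 CR mice it did not pass (r = 0.438, exact permutation p = 0.276, adjusted 0.307; rho = 0.643, exact permutation p = 0.0962, adjusted 0.113), and r was -0.004 without the 2 farthest. Per1 (0.56), Cry1 (0.31), Dbp (0.28) and Rora (0.23) were higher and Clock (-0.24) lower. With Per2, 5 of 17 clock genes were higher and 1 lower, against 6.86% of all genes higher and 4.72% lower. Without C57BL/6J 3 were higher and none lower. Arntl, Nr1d1 and Per3 did not pass. No source used here gives the hour at which each strain was killed.

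The remaining genes with the widest gaps belong to no list. Fbxo44, which encodes an F-box protein of ubiquitin ligases, measured 6.73, 6.98 and 7.18 against 4.72 to 7.06, a difference of 1.55 (SE 0.0789, limma adjusted p = 1.97e-20). C57BL/6J was nearly as high (6.70, limma adjusted p = 0.043), whereas the other 4 strain means were 5.01 to 5.22. Tmem144, a membrane protein, was higher by 1.22, at 8.06, 8.90 and 9.15 against 6.11 to 8.49. Hopx, a cofactor of cardiac development, was lower at 7.67, 8.19 and 8.75 against 8.16 to 9.56 (-0.89, SE 0.072, limma adjusted p = 4.34e-13). Gpr22, an orphan receptor of heart muscle, measured 5.16, 6.07 and 7.10 against 5.40 to 8.62 (-1.34, SE 0.22, limma adjusted p = 1.63e-05). Ccdc122 was lower with no overlap, at 2.99 to 3.60 against 3.69 to 6.15 (-1.05), and its neighbour on chromosome 14, Lacc1, was lower too (-0.51). Naa20 (-0.86) and Zfp39 (-0.79) completed the 12 most reduced. Further genes with no overlap were Tfe3, at 7.26 to 7.70 against 5.71 to 6.92, Man2a2, at 8.20 to 8.64 against 5.60 to 8.19, and Lyrm4, at 6.99 to 7.52 against 7.58 to 8.72. Genes apart from each strain lay on every autosome and on X, from 3 on chromosomes 15 and 18 to 14 on chromosome 5, and 4 pairs were immediate neighbours.

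The strain difference was measured again in the hearts of CR mice, which were other animals. Against the mean of 5 strains 1802 genes were higher (9.04%) and 1256 lower (6.3%) in BALB/cJ on CR, and 203 genes (1.02%) were apart from each strain. Of the 151 genes of the control mice, 79 were among them, which is 52.3% of the control list and 38.9% of the CR list. All 151 kept their sign in CR mice, and 148 were called against the mean of 5. Of the 2310 genes called in control mice, 2274 had the same sign in CR mice and 1613 were called there. Control and CR mice of 1 strain shared breeder and housing, so these are other mice and not another study.

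Differences were mostly larger on the control diet, in 124 of the 151 genes, which had been chosen in those mice. Hspa1a differed by 2.00 on CR, at 6.61, 8.59 and 10.27 against 5.97 to 7.11, Hsph1 by 1.16, Dnajb1 by 0.94 and Hspb1 by 0.96. Of the 17 chaperones 10 were higher and none lower on CR, against 9.04% of all genes higher, with a median of 0.27. Acta1 differed by 1.81 and passed against 4 of the 5 strains, and C7 differed by 1.94 and passed against 4. Myl1 (1.75), Nppb (1.02), Gstm2 (0.77) and Zhx2 (-2.20) were as far or farther from the other strains on CR. A test of whether the strain difference itself changed with diet passed for 0 of 19938 genes by limma after adjustment. At an unadjusted p under 0.05, 445 passed, fewer than chance alone would give over that many genes. Of these 17 were among the 151. Hspa1a gave an unadjusted limma p of 0.032 for a change of 0.79, and Plbd1 gave 0.0017 for a change of -0.47. Both, like the 151, were chosen for their control differences. That choice pulls the test toward a change, so these unadjusted values decide nothing.

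**Figure D5:**
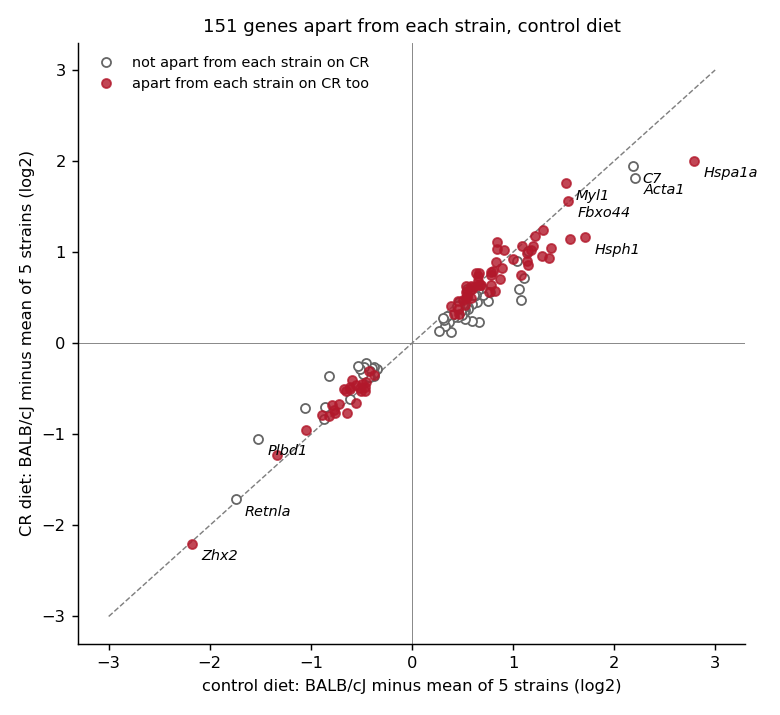
Difference in log2 signal between BALB/cJ and the mean of 5 strains on the control diet (x axis) and on CR (y axis) for the 151 genes apart from each strain on the control diet; filled red points were apart from each strain on CR too (79), and the dashed line marks equal differences. All 151 points lie below 0 on both axes or above 0 on both, and the points for Hspa1a, Hsph1 and Acta1 lie under the line.

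The transcripts that the study text names for heart did not separate BALB/cJ on the control diet. Scd4, a fatty acid desaturase, differed by 0.46 (limma adjusted p = 0.167) on the control diet and by 1.28 on CR, where it was apart from each strain. The transferrin receptor Tfrc gave -0.62 (limma adjusted p = 0.0502), the tubulin genes Tuba4a -0.21 and Tuba8 0.10, and the acetylcholine receptor subunit Chrna2 -0.19, none of which passed.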

How the data were processed

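Total RNA of hearts was biotin labelled and hybridised to Affymetrix Mouse Gene 1.0 ST arrays, 1 mouse per array. The deposited log2 values were made by the authors with the RMA-Sketch algorithm of Affymetrix Expression Console, which corrects background, quantile normalizes and summarises probes; no source used here names its version. The annotation of the platform gave a single gene symbol to 21789 of 35556 probe sets, several to 1621 and none that could be used to 12146, and only the first kind entered the tests. Where a gene had several (999 genes), the probe set brightest over the 112 arrays was kept, which left 19938 genes with values of 0.463 to 14.2. No arrays were duplicates, as the highest correlation between any of them was 0.992. Array medians of the 48 control arrays were 5.32 to 5.57. Precision depends on how many arrays there are and on the spread between mice of a strain.

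The 48 control arrays were given 1 mean per strain in limma 3.58.1 (lmFit and eBayes, R 4.3.3), and BALB/cJ was contrasted with the mean of the 5 other group means and with each strain, with Benjamini-Hochberg adjustment over all genes. The same fit was made on the CR arrays without DBA/2J CR replicate 7, whose correlation with its group was 0.238, and a joint fit tested strain by diet. The script was tested on simulated data. Correlations across mice used exact permutation tests. Python 3.11.15, pandas 2.3.3, scipy 1.17.1 and matplotlib 3.10.9 were used for tables and figures. Genes were named by a rule: the 12 largest differences each way among genes apart from each strain, the known BALB/c traits, the heart genes of the study text, and up to 4 called members of each list with the smallest p. All heat shock members are given because the whole list is described, and further genes are marked as picked after their values had been seen. Members, lists and tests were chosen with earlier results of these data known. Alternatives covered normalization, a filter on low signal, probe set choice, the variance model, array weights, blocking on replicate number, marker levels as covariates, left-out arrays and strains, and the methods' t-test. Replicate numbers did not pair the mice: deviations of same-numbered arrays of different strains correlated at a median of 0.003 (120 pairs, -0.61 to 0.51), against 0.011 for other pairs.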

Additional observations from a re-analysis of the deposited data

Results flagged for a closer look

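Among the 8 BALB/cJ control mice, single arrays lay far from the other 7 for 11 of 117 named genes and for 8 of 43 list levels. The measure is the gap to the nearest array divided by the range of the group, and chance alone passes its limit in about 1 of 20 groups.

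Replicate 7 accounted for all 8 list levels and for 7 of the 11 genes. The ratios of its list levels were 0.966 for thymocyte markers, 0.911 for cell cycle genes, 0.89 for T and B lymphocyte markers, 0.69 for ventricular markers, 0.658 for DNA repair genes, 0.639 for class II genes, 0.532 for actins and 0.528 for glycolysis. The array was lowest for Ccnd1 (7.87 against 8.42 to 8.79, ratio 0.593), Des (11.76 against 12.06 to 12.28, 0.568), Ndufab1 (9.15 against 9.54 to 9.86, 0.548), Alad (9.87 against 10.24 to 10.55, 0.543) and Eno3 (11.99 against 12.42 to 12.79, 0.539). It was highest for H2-Ea (9.63 against 8.08 to 8.79, 0.544) and Me1 (9.76 against at most 9.35, 0.541).

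Replicate 3, the mouse with the lowest Hspa1a, was also lowest for Hspb1 (9.72 against 10.45 to 11.08, 0.536) and was highest for Tuba4a (11.39 against 8.91 to 10.02, 0.553). Replicate 6 was highest for Postn (10.68 against 9.43 to 9.88, 0.639), and replicate 2 for Col1a2 (8.48 against 7.80 to 8.09, 0.583).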

How the results depend on the processing

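Of 107 named genes called in the control comparison 72 were called under each of 25 settings in which they were fitted, and 0 to 14 lost the call under any 1 setting. Without BALB/cJ replicate 7 these included Actb, C1qa, Casq2, Clock and Plin5, without C57BL/6J Clock and Tnni3, and without 129S1/SvImJ Acot1, Actb, Asph, C1qa, C1qb, Cd68, Col1a1 and Plin5. Leaving out each BALB/cJ mouse in turn gave 1785 to 2234 genes against the mean of 5 (1061 to 1301 higher, 710 to 933 lower) and 127 to 173 apart from each strain (82 to 120 higher, 40 to 53 lower). With the replicate number as a replicate block these counts were 2264 (1305 and 959) and 149 (103 and 46), and Flt1, Igf2 and Rgs2 lost their call. With array weights they were 4812 (2649 and 2163) and 424 (292 and 132). Genes apart from each strain numbered 252 (161 and 91) without C57BL/6J, 272 (193 and 79) without CBA/J and 253 (173 and 80) without DBA/2J. Fewer strains had to be passed in these settings. Without CBA/J replicate 1 alone, where all 5 strains still had to be passed, they numbered 225 (157 and 68). Against the mean of 5, 3152 genes passed without that array and 2989 without CBA/J. Genes apart from each strain numbered 232 (158 and 74) without the 4 arrays that stood apart, a setting chosen after seeing the data. Against the mean of 5, the methods' t-test gave 1759 genes at their threshold and 1026 (655 and 371) after Benjamini-Hochberg, and 428 (276 and 152) differed by at least 0.5 as well. With DBA/2J CR replicate 7 included, 52 genes were apart from each strain on CR. Signs changed for 1 called gene, Alad (-0.003043 without C57BL/6J), and for genes that had not been called. Actc1 was -0.008701 after a second quantile normalization, -0.02721 with array weights, -0.04476 without C57BL/6J, -0.02253 without CBA/J, -0.01459 without CBA/J replicate 1, -0.005624 without the 4 arrays and -2.893e-05 to 0.04873 with 1 BALB/cJ mouse left out. Prkdc was -0.0131 with array weights, -0.03093 without CBA/J, -0.02911 without the 4 arrays and -0.02841 to 0.063 with 1 BALB/cJ mouse left out. Tuba8 was -0.09154 without C57BL/6J and -0.06117 to 0.241 with 1 BALB/cJ mouse left out, Gpc3 was 0.1272 without C57BL/6J, Cdkn2a 0.00217 with array weights and Tuba4a 0.05475 without CBA/J. Apart from what the settings themselves fix, the cause was not tested. Detection above background was not analysed here, which limits dim genes such as Ccdc122.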

Other observations

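Some of the widest gaps from the mean of 5 strains were shared with another strain and so were not apart from each strain. They were picked by size after the values had been seen. Aqp6, a water and anion channel, was higher by 2.68 (SE 0.187, limma adjusted p = 1.77e-15), with a median of 7.56 in BALB/cJ and 7.30 in CBA/J, against medians of 4.00 to 4.16 in the remaining strains. The CBA/J range of 5.43 to 7.64 lay within that of BALB/cJ but for its lowest array, since the BALB/cJ range was 5.64 to 8.25. Rxfp1, the relaxin receptor, was higher by 2.26 (SE 0.318, limma adjusted p = 7.66e-07), at 6.04 to 8.25 in BALB/cJ, and single mice of C57BL/6J and DBA/2J reached 7.12 and 7.98. Cryzl2 was lower by 1.64 (difference -1.64, SE 0.102, limma adjusted p = 3.34e-17), at a median of 5.31 in BALB/cJ and 5.49 in DBA/2J against 7.16 to 7.62 in the others. AI506816 differed most of all genes in the downward direction (-2.63, SE 0.146, limma adjusted p = 4.16e-19), with medians from 9.24 in DBA/2J to 3.59 in BALB/cJ and 2.45 in 129S1/SvImJ. Klk1b22, a glandular kallikrein, differed by -1.55, because C3H/HeJ (median 8.09) and 129S1/SvImJ (6.54) stood above BALB/cJ (3.38), while the other strains had medians of 3.29 to 3.41.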
